A study of Rattus norvegicus with 64 samples.

Results

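The comparison asked how the transcript response to bromobenzene after 10 h differed between liver and kidney. All libraries labelled 10 h were taken, which gave 32 of the 64 libraries of the series, 8 for each combination of organ and agent. For each transcript, the bromobenzene to vehicle change in kidney was subtracted from that in liver, and the difference of the log2 changes is called the organ difference. The 4 groups were liver and kidney of Sprague Dawley rats sampled 10 h after bromobenzene (0.4 g/kg) or after the 2% saline vehicle. The matching 32 libraries at 5 h, of the same design, were used as independent libraries. The design text gives 32 rats for the 64 libraries, so livers and kidneys of the same animals were sampled, but the labels do not say which library pairs with which. Sex and age are not in the labels.

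Bromobenzene is a classical liver toxicant. Cytochrome P450 enzymes of hepatocytes oxidise it to a reactive epoxide, which is conjugated with glutathione and, where glutathione runs low, binds to proteins. Hydroquinone and glutathione conjugates formed in the liver travel in the blood to the kidney, where the proximal tubule takes them up, so the same dose reaches the organs in different chemical forms.

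Of 31715 transcripts, 14008 had a mean of at least 1 CPM (estimated counts per mega-count of the library) in both organs at 10 h and were tested. Another 653 reached 1 CPM in liver only, 3559 in kidney only and 13495 in neither. The deposited tables carry transcript identifiers without gene names, and 0 of the 31715 could be paired with a symbol here, so transcripts are described in groups and 4 are named by identifier. For the same reason the organ labels could not be checked against named marker genes. Within the deposited values they were well separated, since 396 transcripts at least 16-fold higher in liver than in kidney in the 5 h vehicle libraries took up 41.1% to 47.5% of each liver library and 0.228% to 0.254% of each kidney library at 10 h. Libraries held 13.8 to 27.8 mega-counts in the bromobenzene livers, 17.6 to 24.8 in the vehicle livers and 17 to 24.1 in the kidneys.

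Bromobenzene liver replicate 3 stood apart from its group. Its mean correlation with the other bromobenzene livers, on log2 CPM, was 0.912, while the other 7 lay between 0.933 and 0.949 and the vehicle livers between 0.947 and 0.956. The bromobenzene livers as a group were the most variable of the 4, and the kidneys of both agents were the most alike, at 0.962 to 0.969. The number of transcripts with an organ difference, and its main splits by organ ratio and liver level, are therefore given with and without it. Most other counts are given with it.

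The response differed between the organs for 1131 of the 14008 transcripts (8.07%) at an adjusted p under 0.05 in edgeR's quasi-likelihood test of the interaction. In 602 (4.3% of those tested) the liver change lay above the kidney change, and in 529 (3.78%) it lay below. Among the 602, the median organ difference was 0.58 on the log2 scale, or 1.5-fold, made of a median liver change of 0.56 and a median kidney change of -0.03. Among the 529, the median organ difference was -0.49, or 1.40-fold, made of a median liver change of -0.44 and a median kidney change of 0.03. Over all transcripts tested the median organ difference was 0.01.

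Organ differences of at least 2-fold lay more often on the side where the liver change was above the kidney change. Of the 602, 104 differed at least 2-fold and 19 at least 4-fold, against 63 and 2 of the 529. Without bromobenzene liver replicate 3 the number called was 1969 (977 above and 992 below), and 597 of the 602 and 528 of the 529 remained called. The split into above and below depends on the scaling. RLE size factors gave 540 above and 566 below. With library totals in place of edgeR's TMM scaling, 1041 were above and 316 below and the median over all transcripts moved to 0.09. On log2(TPM + 1) the split was 1182 above and 266 below, with a median of 0.10. The library numbers come in 2 stretches that the labels do not call batches. Within the earlier numbers alone 513 transcripts were called, and within the later, with 5 libraries per organ, 5.

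**Figure D1:**
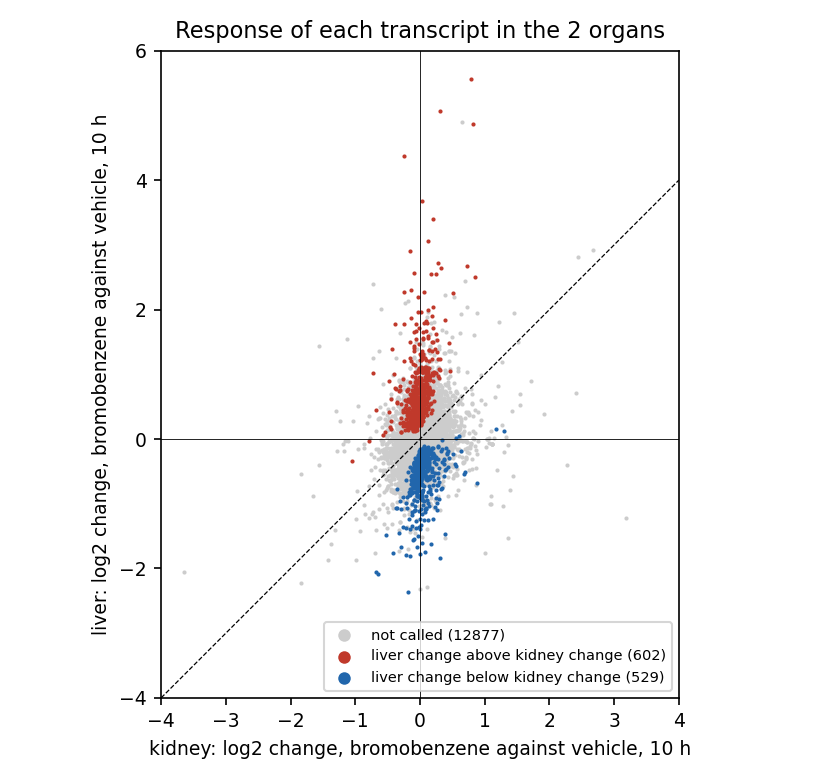
Log2 change of each of the 14008 transcripts in kidney (horizontal) and liver (vertical), bromobenzene against vehicle at 10 h, with 8 libraries in each of the 4 groups. Coloured points are the 602 and 529 transcripts with an organ difference; they spread along the vertical axis and lie near 0 on the horizontal one. The dashed line marks equal change in both organs.

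The liver carried most of the difference. The larger of the paired changes was that of the liver in 583 of the 602 and in 502 of the 529. Signs were opposite in 353 of the 602 and 322 of the 529. Choosing on the difference of the changes favours opposite signs and larger changes in the organ with the wider spread. The matching shares over all transcripts tested are not given here. The kidney changes were small. Their middle 50% ran from -0.10 to 0.05 among the 602 and from -0.03 to 0.10 among the 529, and over all transcripts tested the median size of the change was 0.17 in liver and 0.07 in kidney.

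When each organ was fitted with its own 16 libraries, 1660 transcripts (11.9%) changed in liver, 872 up and 788 down, and 259 (1.85%) changed in kidney, 122 up and 137 down. These fits use the same libraries as the organ difference and describe which organ it came from. Of the 602, 495 passed in liver alone, 14 in kidney alone, 8 in both and 85 in neither. Of the 529, the counts were 401 in liver alone, 17 in kidney alone, 18 in both and 93 in neither. An organ difference was itself called for 55.5% of the 1660 liver transcripts and for 22% of the 259 kidney transcripts, so most of the kidney calls were not shown to differ from the liver.

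The spread between animals was not the same in the organs. In limma fits of each organ alone, the standard error of the change was larger in liver for 90.8% of transcripts. Its median was 0.13 in liver and 0.08 in kidney. A single fit of the 4 groups shares one estimate of the spread, and in it 3364 transcripts (24%) passed in liver and 28 (0.2%, or 10 to 39 leaving out 1 library) in kidney. Both counts moved by over 1.5 times when each organ kept its own spread, to the 1660 and 259 above. The organ difference itself moved less, from 1131 to 939, when it was tested from limma fits of each organ alone. Those fits change the method as well as the spread.

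In 107 of the 602 and 134 of the 529 the 8 bromobenzene livers did not overlap the 8 vehicle livers, while over all transcripts tested 291 (2.08%) were so separated. The kidneys did not overlap in 5 of the 602 and 9 of the 529, against 62 of all tested (0.443%). The 602 and 529 were called on these same libraries, which favours such separation, so these counts are a description.

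Averaged over the 602 transcripts, every bromobenzene liver lay above every vehicle liver. The mean log2 deviation from the vehicle mean ran from 0.40 in replicate 3 to 0.95 in replicate 8, with a median of 0.68. Vehicle livers ran from -0.06 to 0.07 and bromobenzene kidneys from -0.06 to 0.00. Over the 529, the bromobenzene livers ran from -0.66 to -0.42 and the bromobenzene kidneys from 0.00 to 0.09. The transcripts were chosen on these libraries, so the separation of the livers is a description and the new information is the range among the treated animals.

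In their share of a library, the 602 transcripts went in liver from 1.93% ± 0.084 of the counts to 3.62% ± 0.610 (SD, n = 8 each), and the 529 went from 6.20% ± 0.187 to 4.72% ± 0.149. In kidney the same transcripts held 4.61% ± 0.062 and 4.58% ± 0.122 for the 602, and 6.58% ± 0.059 and 6.87% ± 0.236 for the 529. The 602 were thus a smaller part of the liver than of the kidney under vehicle, and the gap narrowed under bromobenzene. The 602 and 529 were chosen on these libraries, so the direction of their liver shares follows from the choice. In whole organs, a change in the number of cells of a type and a change in RNA per cell cannot be told apart.

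**Figure D2:**
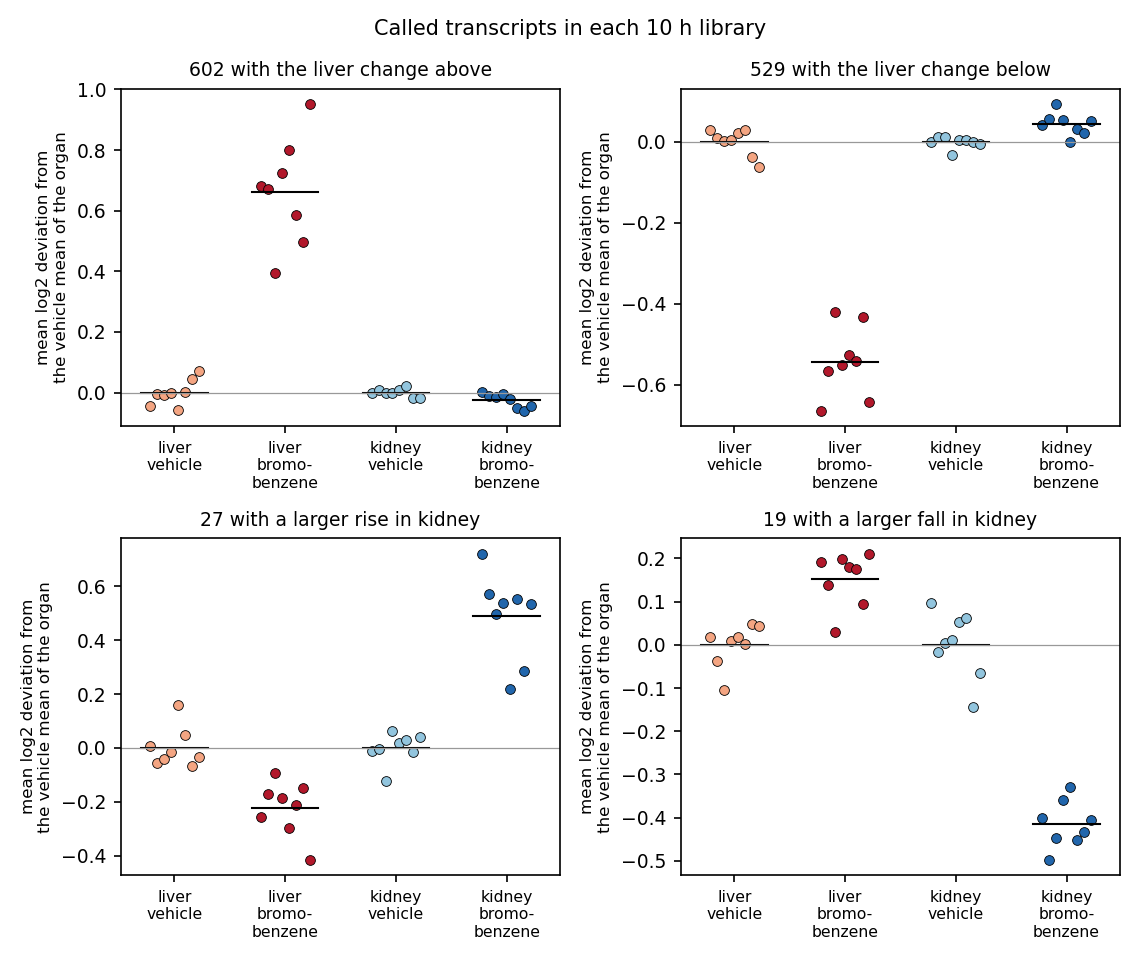
Mean log2 deviation from the organ's vehicle mean in each of the 32 libraries (points, with bars for group means). Shown are 4 groups of transcripts with an organ difference, chosen on these same libraries. In the upper panels the bromobenzene livers lie between 0.40 and 0.95 and between -0.66 and -0.42 while the kidneys stay near 0; in the lower panels the bromobenzene kidneys lie between 0.22 and 0.72 and between -0.50 and -0.33.

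In 46 of the 1131 transcripts the kidney change was the larger, 27 of them up and 19 down in kidney. The median size of the change was 0.42 in kidney and 0.18 in liver, and signs were opposite in 40. The kidney changes ran from -1.05 to 1.30 on the log2 scale, and 23 of the 46 passed when the kidney was fitted alone. Over the 27, the mean deviation of the bromobenzene kidneys ran from 0.22 to 0.72 and that of the bromobenzene livers from -0.42 to -0.09. Over the 19, the bromobenzene kidneys ran from -0.50 to -0.33 and the bromobenzene livers from 0.03 to 0.21. The 27 and 19 were chosen on these same libraries, so these directions are a description. All 46 were called again without bromobenzene liver replicate 3. At 5 h 0 of the 46 had an organ difference, where only 0.991% of all transcripts tested did, so nothing is read from that count.

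Transcripts that passed in each organ alone and moved opposite ways were few. In 7 the liver fell, with log2 changes of -0.60 to -0.28, and the kidney rose, with changes of 0.13 to 0.56. In 1 the liver rose by 0.55 and the kidney changed by -0.29. The other 18 called in both organs moved the same way in each, 7 up and 11 down, and differed in size.

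The transcript with the largest organ difference under the rule for named transcripts was ENSRNOT00000017181.4. In the vehicle livers it lay between 0.725 and 2.18 CPM, with a median of 1.31. In the bromobenzene livers it lay between 2.34 and 171 CPM, with a median of 17.3, so every treated liver was above every control but the treated animals spanned a wide range. The kidneys had a higher level under vehicle, 7.18 to 10.8 CPM, and 8.57 to 14.2 CPM under bromobenzene, and these ranges overlapped. The log2 change was 5.07 (SE 0.64) in liver and 0.31 (SE 0.53, edgeR adjusted p = 1) in kidney, and the organ difference was 4.76 (SE 0.81, edgeR adjusted p = 0.000318). At 5 h the livers stayed between 0.464 and 1.43 CPM under bromobenzene and between 0.413 and 1.07 CPM under vehicle. The organ difference grew by 4.26 from 5 h to 10 h (edgeR adjusted p = 0.00505). Tested from limma fits of each organ alone, the organ difference was 3.69 and did not pass (limma adjusted p = 0.117). Those fits change the method as well as the spread. A limma fit with a variance per group gave 3.73, which passed (limma adjusted p = 0.0227). Without bromobenzene liver replicate 5, the highest, the estimate was 4.15 (edgeR adjusted p = 0.000373).

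For ENSRNOT00000032016.2 the call rested on few reads in liver. The vehicle livers held 0 to 10 counts (4 of 8 at 0, 18 counts in all), and the bromobenzene livers 2 to 213 counts, or 0.111 to 7.68 CPM. The groups overlapped in liver, with replicate 3 lowest. The kidneys held 25.2 to 48.5 CPM under vehicle and 16.3 to 44.9 under bromobenzene. The organ difference was 4.62 (SE 0.83, edgeR adjusted p = 0.000543). The transcript reached the 1 CPM minimum in liver through its bromobenzene libraries alone, and over the other ways of processing the estimate ran from 1.16 to 7.47. It was 4.0 without bromobenzene liver replicate 8 and 5.57 without vehicle liver replicate 3.

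ENSRNOT00000045773.2 was the most negative. Its level in the vehicle livers was 1.47 to 7.28 CPM, with a median of 4.77, and in the bromobenzene livers 0.360 to 2.12 CPM, with a median of 0.770. The ranges overlapped at the ends. In kidney it lay between 5.39 and 9.46 CPM under vehicle and 4.93 and 7.83 CPM under bromobenzene. The liver change was -2.37 (SE 0.31) and the organ difference -2.19 (SE 0.41, edgeR adjusted p = 0.000762). The bromobenzene livers averaged 0.921 CPM, under the 1 CPM minimum, so the transcript was tested in liver only through its vehicle libraries, where it was high, and its fall is no independent support. At 5 h the vehicle livers themselves were lower, 0.150 to 2.13 CPM, than at 10 h, a difference between the control groups that was not tested.

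ENSRNOT00000080185.1 showed the cleanest separation of the 4, and it is mainly a liver transcript. The vehicle livers lay between 48.2 and 65.3 CPM and the bromobenzene livers between 11.5 and 28.3 CPM, without overlap. In kidney the level was 0.734 to 2.59 CPM under vehicle and 0.894 to 3.52 CPM under bromobenzene. The liver change was -1.84 (SE 0.19), the kidney change 0.31 (SE 0.25), and the organ difference -2.15 (SE 0.31, edgeR adjusted p = 4.02e-05). At 5 h the livers changed by -0.87 (edgeR adjusted p = 0.0409), with 36.3 to 94.1 CPM under vehicle and 20.4 to 51.7 under bromobenzene. The organ difference of -0.76 at 5 h did not pass (adjusted p = 0.494), and the step from 5 h to 10 h did not pass either (adjusted p = 0.173).

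**Figure D3:**
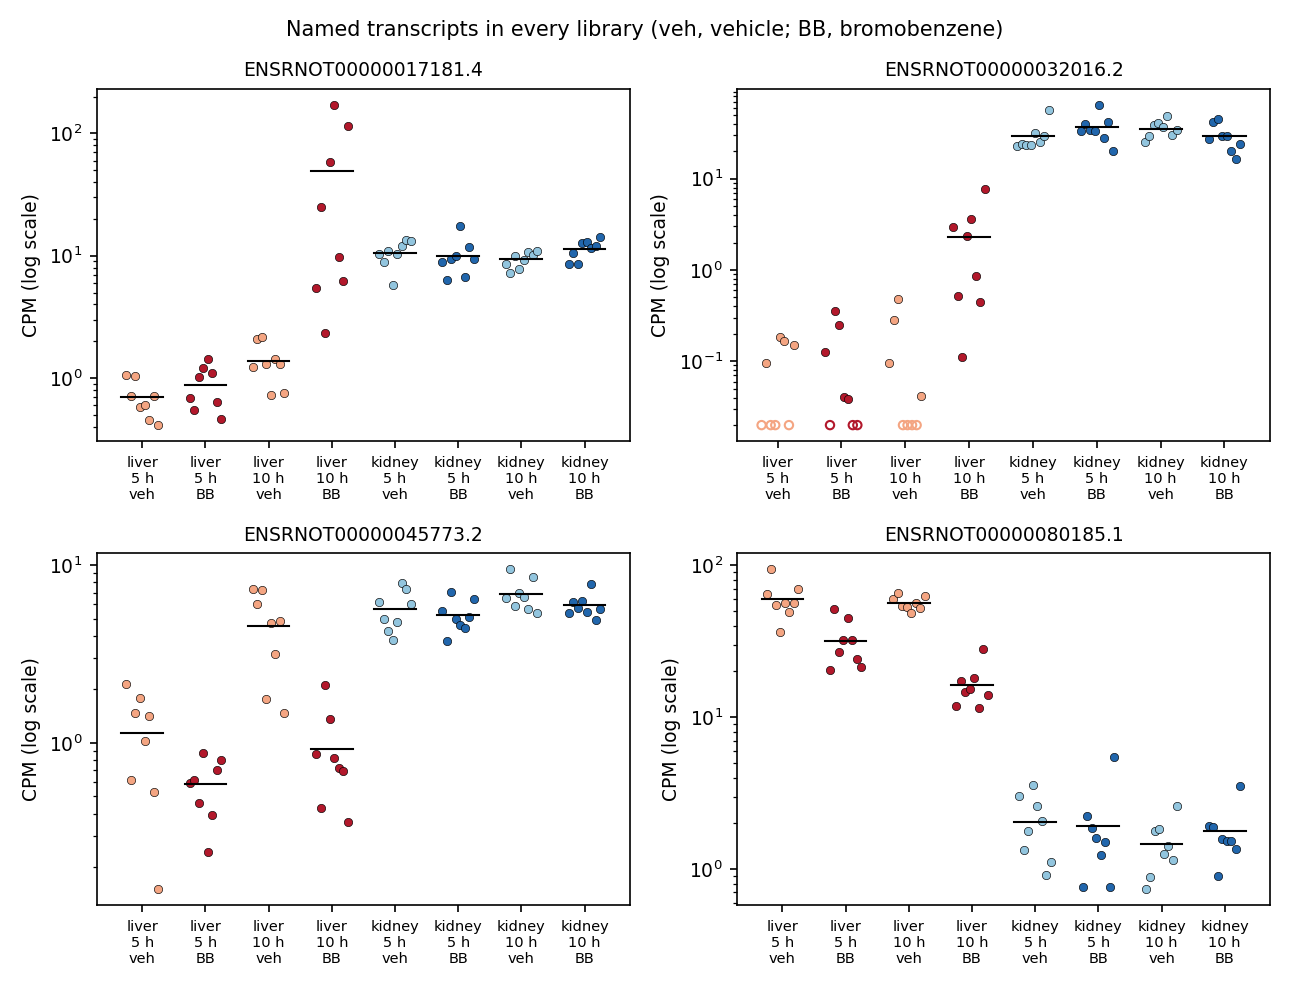
CPM on a log axis of the 4 named transcripts in all 64 libraries, by organ, time and agent (points, libraries; bars, group means, left out where a library is at 0; open circles, libraries at 0 drawn at the foot of the axis). The bromobenzene livers at 10 h leave the range of the vehicle livers for ENSRNOT00000017181.4 and ENSRNOT00000080185.1, and the kidneys overlap between the agents in all 4.

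At 5 h, in libraries not used for the comparison above, 140 of 14129 transcripts (0.991%) had an organ difference, 75 with the liver change above and 65 with it below. Of these 140, 47 were called at 10 h too, which is 33.6% of the 140 and 4.16% of the 1131. The sign was the same at both times for 105 of the 140, and 6 that were called at both times had opposite signs. Of the 602, 378 of the tested had the same sign at 5 h, and of the 529, 331 of those tested. Over all transcripts tested at both times the share was 51.5% of 13769. The median organ difference at 5 h was 0.08 for the 602 and -0.08 for the 529, against 0.58 and -0.49 at 10 h. The 5 h count depended on single libraries. It was 372 without bromobenzene liver replicate 2, 89 without bromobenzene liver replicate 5 and 91 without vehicle kidney replicate 2.

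The organ differences found at 5 h were followed in the 10 h libraries. Over the 75, the mean log2 deviation of the bromobenzene livers at 10 h was 0.14 to 0.54, against -0.15 to 0.15 in the vehicle livers and 0.00 to 0.07 in the bromobenzene kidneys. Over the 65, the bromobenzene livers ran from -0.61 to -0.06, the vehicle livers from -0.13 to 0.10 and the bromobenzene kidneys from -0.08 to 0.00. In both lists 1 treated liver, replicate 7, fell within the range of the vehicle livers. The other 7 lay outside it.

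The difference between the times was tested in a fit of all 64 libraries. The organ difference itself differed between 10 h and 5 h for 384 transcripts (2.74%), 199 higher and 185 lower at 10 h. That test shares its 10 h libraries with the 1131. It included 139 of the 602 and 121 of the 529. In all of these except 1 of the 121, the step from 5 h to 10 h had the sign of the 10 h organ difference. Choosing transcripts called at 10 h favours that sign, and the sizes at each time were not compared. For the other 871 transcripts no difference between the times was shown.

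Called transcripts were not spread evenly over levels and organs. Transcripts were grouped by their level in the 5 h vehicle libraries, which the organ difference at 10 h did not use. Among 899 transcripts more than 2-fold higher in liver, 128 (14.2%) were called, 37 above and 91 below. Among 5832 more than 2-fold higher in kidney, 439 (7.53%) were called, 275 above and 164 below. That lean lay in the 4155 at 2 to 4-fold higher in kidney, with 201 above and 95 below. The 1395 at 4 to 16-fold gave 54 and 50, and the 282 above 16-fold gave 20 and 19. Among 7277 within 2-fold, 564 (7.75%) were called, 290 above and 274 below. The called share was 15.8% of 443 at 2 to 4-fold higher in liver and 14.3% of 321 at 4 to 16-fold, but 8.89% of 135 above 16-fold, near the 8.07% of all transcripts. Over the 899 the median organ difference was -0.12, made of -0.09 in liver and 0.02 in kidney. Under other scalings the calls among the 899 were 53 above and 68 below on library totals and 60 and 73 on log2(TPM + 1). Those scalings moved all transcripts upward. The median over the 899 was -0.124 with TMM, -0.045 on library totals and -0.017 on log2(TPM + 1). Over all transcripts tested it was 0.005, 0.086 and 0.095, so the 899 lay below the whole under each scaling. Without bromobenzene liver replicate 3 the calls were 51 above and 127 below among the 899, 429 and 353 among the 5832, and 497 and 512 among the 7277.

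The called share also went with the level in liver, and in a like way with the level in kidney. Of 4296 transcripts under 5 CPM, 168 (3.91%) were called, 116 above and 52 below. The called share was 7.41% of 4926 at 5 to 20 CPM and 11.4% of 3765 at 20 to 100 CPM. At 100 CPM or more it was 16.6% of 1021, 37 above and 133 below. On library totals the last group held 55 above and 82 below, and on log2(TPM + 1) 66 and 75. Within it, transcripts more than 2-fold higher in liver gave 13 above and 48 below, and the others 24 and 85. On library totals these were 17 and 37 against 38 and 45, and on log2(TPM + 1) 21 and 37 against 45 and 38, so the calls of the others turned. The median organ difference of the others was -0.108 with TMM and 0.004 on log2(TPM + 1). Over all transcripts tested it was 0.005 and 0.095, so all moved upward. Without bromobenzene liver replicate 3 the 4 levels, from lowest to highest, held 197 above and 87 below, 391 and 228, 339 and 459, and 50 and 218. By level in kidney, 3.12% of 2085 transcripts under 5 CPM were called, 39 above and 26 below. The called share was 5.94% at 5 to 20 CPM and 9.85% at 20 to 100 CPM. At 100 CPM or more in kidney it was 14.4% of 1599, 79 above and 151 below, so the trend is not particular to the liver level. Depth per transcript rises with level too, and its part in the called share was not tested.

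Among transcripts tested, 7.12% of those 2 to 4-fold higher in kidney and 7.46% of those 4 to 16-fold higher were called, under the 8.07% of all. Those more than 16-fold higher in kidney were called more often than the average. They were tested only where liver reached 1 CPM over its treated and vehicle libraries together, so a rise in treated livers could bring one in. ENSRNOT00000032016.2 entered in this way, and how many others of this group did was not counted. Over all transcripts tested and both organs, 230 passed with a vehicle mean under 1 CPM, of which 19 were called. Of 282 that were more than 16-fold higher in kidney, 39 (13.8%) were called, 20 above and 19 below, or 28 and 25 without bromobenzene liver replicate 3. Beside this, the share of a liver library taken by 849 kidney-enriched transcripts was 0.196% to 0.230% in the vehicle livers and 0.207% to 0.523% in the bromobenzene livers, highest in replicates 5 (0.523%) and 8 (0.387%). These are also the livers with the highest ENSRNOT00000017181.4 (171 and 115 CPM). Whether this share plays a part in the calls was not tested. In the other direction, liver-enriched transcripts took 0.228% to 0.253% of the bromobenzene kidneys and 0.234% to 0.254% of the vehicle kidneys.

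With TMM scaling, the direction of the called transcripts also went with their length. Of those called, 38.6% were above in the shortest of 5 equal groups (114 to 1325 nt) and 66.8% in the longest (3911 to 23724 nt), with 47.3%, 52.4% and 55.8% between. Without bromobenzene liver replicate 3 the shortest held 84 above and 339 below and the longest 281 above and 87 below, a wider gap than with it (54 and 86, 145 and 72). The direction in the shortest group turned under other scalings, with 89 above and 50 below on library totals and 134 and 55 on log2(TPM + 1). Those scalings moved all transcripts upward, and the longest then held 250 above and 47 below, and 219 and 34. The median organ difference ran from -0.08 in the shortest to 0.06 in the longest with TMM. On library totals it ran from -0.001 to 0.147. On log2(TPM + 1), which corrects each library for effective length, the median organ difference still ran from 0.03 in the shortest to 0.12 in the longest. The part of RNA quality in this gradient was not tested.

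**Figure D4:**
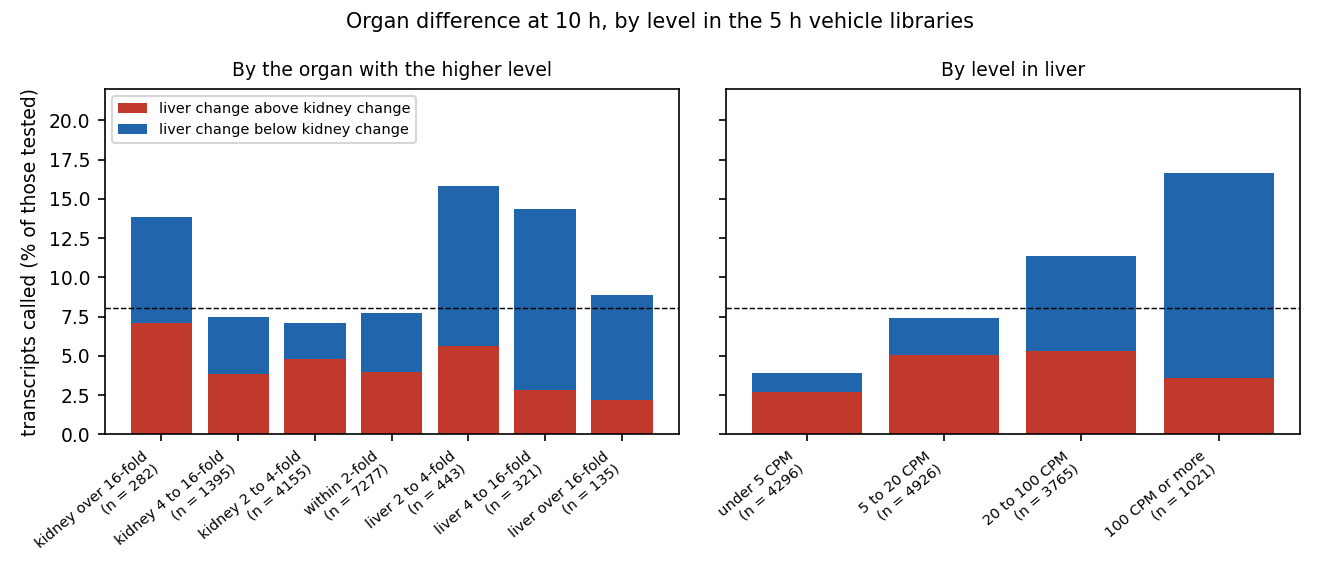
Percent of tested transcripts with an organ difference at 10 h (bars start at 0; red, liver change above; blue, below; dashed line, 8.07% of all), by the ratio of levels in the vehicle organs (left) and by the level in liver (right). The called share rises from 3.91% under 5 CPM to 16.6% at 100 CPM or more, where most called transcripts lie below. By level in kidney, not drawn, it rises from 3.12% to 14.4%.

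The 1 CPM minimum set the edges of these counts. Of 245 transcripts just inside it, between 1 and 1.1 CPM in the organ with the lower level (median 1.05), 4 were called, and 269 lay just outside, between 0.9 and 1 CPM (median 0.956). Some transcripts passed only through one agent's libraries. With a vehicle mean under 1 CPM there were 230, of which 19 were called, all above. With a bromobenzene mean under 1 CPM there were 121, of which 8 were called, 1 above and 7 below. The other 1104 calls, of which 522 lay below, had every group mean at 1 CPM or more.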

How the data were processed

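RNA of liver and kidney was sequenced as stranded 150-nt read pairs from polyadenylated RNA, per the labels' protocols, which speak of cultured cells where the tissue labels name organs. Per the submitters' processing notes, kallisto 0.42.4 was used with build Rnor_6.0; no annotation release or read trimming is given in the sources used here. The authors deposited raw estimated counts per transcript. Where isoforms, paralogs or pseudogenes share reads, these are divided, which leaves fractions and makes the levels of such transcripts uncertain. The authors also deposited TPM, corrected for effective length and scaled to a fixed sum per library.

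Here estimated counts were rounded, transcripts with a mean of at least 1 CPM in each organ were scaled by TMM, and the interaction was tested in R 4.3.3 by edgeR 4.0.16 (quasi-likelihood with robust dispersion, 4 groups of 8, no covariate, Benjamini-Hochberg adjusted p under 0.05). The SE given for named transcripts is the size of the log2 change divided by the root of F. Changes per organ given for named transcripts come from this shared fit. Each organ was also fitted alone, the 5 h libraries in a fit of their own, and the difference between times in a fit of 64. Deviations are of log2(CPM + 0.5), scaled by TMM. P-values measure the spread between the libraries, and replicate numbers follow record order. The main test took all libraries as independent of one another. Its p-values therefore leave out that the organs of one animal may vary together. No library was a copy of another: over 224 pairs within groups the lowest chi-square per degree of freedom was 9.82. The reference table used here (assembly GRCr8) holds no Ensembl transcript identifiers, so tests ran per transcript, and the gene lists and cell type markers drawn up for this comparison were not tested. Named transcripts are the 2 most positive and 2 most negative organ differences among 1042 that passed, with at least 5 CPM in an organ and at least 7 of 8 treated libraries of the organ with the larger change on one side of the vehicle median. The comparison, lists and groups were chosen with earlier results of these data known. Alternatives were other scalings, filters, tools (DESeq2 1.42.0, limma 3.58.1), units, library-number covariates, a replicate block and leaving out each library. The tests were tried on simulated counts first.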

Additional observations from a re-analysis of the deposited data

Results flagged for a closer look

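In groups of 8 libraries, the highest or lowest value stood apart from the rest in 8 of 64 groups of values looked at (Dixon's criterion, by which chance picks about 1 in 20). Bromobenzene liver replicate 3 had the lowest mean correlation with its group, 0.912. ENSRNOT00000032016.2 was highest in bromobenzene liver replicate 8, at 7.68 CPM. ENSRNOT00000080185.1 was highest in bromobenzene liver replicate 7, at 28.3 CPM, still below every vehicle liver, and in bromobenzene kidney replicate 8, at 3.52 CPM. ENSRNOT00000045773.2 was highest in bromobenzene kidney replicate 6, at 7.83 CPM. Vehicle liver replicate 3 had the highest share of liver-enriched transcripts, 47.5% of its counts. Over the 529 transcripts with the liver change below, vehicle kidney replicate 4 had a mean log2 deviation of -0.031. Over the 27 with a larger rise in kidney, vehicle kidney replicate 3 had -0.12.

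The response differed between the organs, by the test of the interaction, for 1131 transcripts at 10 h. Named among them were ENSRNOT00000017181.4 (4.76 on the log2 scale), ENSRNOT00000032016.2 (4.62), ENSRNOT00000045773.2 (-2.19) and ENSRNOT00000080185.1 (-2.15). Between the times, the organ difference differed for 384 transcripts, and for ENSRNOT00000017181.4 by 4.26.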

How the results depend on the processing

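Over 17 other ways of processing, the number of transcripts with an organ difference at 10 h stayed within 1.5 times 1131 except in subsets of the libraries. Library numbers 1 to 18 and 33 to 50 gave 513, and the later numbers, with 3 treated and 2 vehicle libraries per organ, gave 5 (1139 at an unadjusted p under 0.05). Both subsets hold fewer libraries. Leaving out 1 library gave 934 to 1969. The highest came without bromobenzene liver replicate 3, and leaving out any other library gave 934 to 1316. TMM scaling gave 53.2% above, library totals 76.7%, log2(TPM + 1) 81.6% and log2(TPM + 0.1) 81.5% with a median shift of 0.11. A like number did not mean the same transcripts. Of the 1131, 918 were called on library totals, 835 on log2(TPM + 1) and 844 on log2(TPM + 0.1), against 1069 with RLE size factors. Calls below numbered 529 with TMM but 316, 266 and 265 on library totals and the 2 TPM settings. The majority lay below with RLE size factors (48.8% above), DESeq2 (49%), the earlier library numbers (48.1%) and the replicate block (48.3%). The cause was not tested.

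For the shared fit, the liver count of 3364 became 2196 with a variance per group, 1660 with each organ fitted alone, 2056 with the earlier and 85 with the later library numbers. The kidney count of 28 became 101 with DESeq2, 317 with a variance per group, 70 on log2(TPM + 1), 259 fitted alone, 5 and 1 with the earlier and later numbers, 13 in a fit of 64 libraries, and 10 to 39 leaving out 1 library. It was 10 to 18 without kidney replicates 1, 2, 4, 6 or 8 of bromobenzene or 1, 3, 5, 6 or 8 of vehicle. The organ difference at 5 h, 140, became 373 with DESeq2 and 89 to 372 leaving out 1 library, an alternative chosen after seeing the data, as were those of the level and length groups. It was 372 without bromobenzene liver replicate 2 at 5 h, 89 without bromobenzene liver replicate 5 and 91 without vehicle kidney replicate 2. On library totals it split 50 above and 73 below, and the 10 h against 5 h test split 372 and 68 with a median of 0.14 (199 and 185 with TMM).

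With a replicate block that pairs library n with n + 32, which the labels do not state, 1032 were called, 893 of them among the 1131. Of 16 such pairs, 9 deviated together with a correlation over 0.1 and 11 kidneys correlated best with the liver of their own number. The correlations ran from -0.079 to 0.222. How many such matches chance would give was not worked out. The p-values behind the 1131 do not take such pairing into account.

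Of 193 tests of the 4 named transcripts, none changed sign. Each lost its call with the later library numbers (adjusted p = 0.477 to 0.609), and ENSRNOT00000017181.4 also when the organs were fitted separately.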
